A study of Mus musculus with 2 samples.

Results

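Receptors for chemokines and other chemoattractants, 10 genes in all, were followed in CD11b+ Gr1+ spleen cells of tumour-bearing PYMT mice and of Wild Type mice. They were taken as a list by name (Cxcr1, Cxcr2, Cxcr4, Ccr1, Ccr2, Cx3cr1, Ccrl2, C5ar1, Fpr1 and Fpr2), and each of the 10 had its row among the 27998 gene rows of both libraries. PYMT is the strain label of mice with the polyoma middle T antigen transgene, and the spleens of 3 of them were pooled into 1 library. In the usual PyMT model that transgene is driven in mammary epithelium, but the labels name no promoter, genetic background, age or tumour stage. The Wild Type library pooled the spleens of 5 mice labelled FVB/n. Both were sorted in the same way and the labels name no treatment, so strain, transgene, tumour and library cannot be told apart. With 1 library per group there was no replicate, no test could be run, and every interval given is a 95% interval that covers counting error only.

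All 10 genes encode membrane receptors of the G protein-coupled family that bind chemokines, complement fragments, chemerin or bacterial peptides, and all but Ccrl2 signal through inhibitory G proteins to steer cell movement. In mouse neutrophils, Cxcr2 and Cxcr4 are known as opposing receptors. Cxcr2 and its CXC chemokine ligands draw neutrophils out of bone marrow into blood and tissue, while Cxcr4 and Cxcl12 hold immature and ageing neutrophils in marrow. Ccr2 and Cx3cr1 are best known from monocytes, where Ccr2 marks the classical and Cx3cr1 the patrolling kind.

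Cells were put into classes by their own transcripts, because the files carry no annotation. A neutrophil had S100a8 and S100a9 at 10% or more of its UMIs (unique molecular identifiers, which count captured transcripts) and under 2 Cd79a and Cd79b UMIs. A monocyte had S100a8 and S100a9 under 5% and at least 2 UMIs of Csf1r and F13a1, and a B cell had them under 5% with at least 3 UMIs of Cd79a and Cd79b. There were 5488 neutrophils in the PYMT library and 3980 in the Wild Type library, 1500 monocytes in PYMT and 496 in Wild Type, and 1085 B cells in PYMT and 305 in Wild Type. Levels are given as CPM, the UMIs of a gene per 1e6 UMIs of the class. All 12 neutrophil markers reached 50 CPM in the neutrophils of both libraries, all 10 monocyte markers in the monocytes and all 10 B cell markers in the B cells. A median neutrophil held 8285 UMIs in the PYMT library and 5630 in the Wild Type library. Of all barcodes, 72 occurred in both libraries.

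Cxcr1, Cxcr2 and Cxcr4 lie on chromosome 1 of GRCm38, where Cxcr1 (74191785 to 74194631, minus strand) lies 30538 bases beyond the end of Cxcr2 (74153989 to 74161246, plus strand). Cxcr4 lies apart from them at 128588199 to 128592293 on the minus strand. Ccr1 (123962124 to 123968692, minus strand) and Ccr2 (124101950 to 124113557, plus strand) are 133257 bases apart on chromosome 9, which also holds Cx3cr1 (119901616 to 120069879, minus strand) and Ccrl2 (111054486 to 111057519, minus strand). Fpr1 (17876471 to 17883940, minus strand) and Fpr2 (17887824 to 17893952, plus strand) are 3883 bases apart on chromosome 17, and C5ar1 lies on chromosome 7 at 16246743 to 16259540 on the minus strand. Positions are those of GENCODE M21.

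The sequences just upstream of 4 receptor genes are shown, because the results turn on these genes: the neighbours Cxcr1 and Cxcr2, then Ccr1, whose level ran most like that of Cxcr2 among the receptors, and Cxcr4, which went the other way. RefSeq windows outside the annotated gene were at hand for 8 of the 10 receptors. Those shown are on GRCm38.p6, read 5′ to 3′ on the strand of the gene, at chr1:74194632-74194881 (minus strand) for Cxcr1, chr1:74153744-74153988 (plus strand) for Cxcr2, chr9:123968693-123968942 (minus strand) for Ccr1 and chr1:128592300-128592549 (minus strand) for Cxcr4. Capitals mark every match, on either strand, to 6 searched motifs.
Cxcr1: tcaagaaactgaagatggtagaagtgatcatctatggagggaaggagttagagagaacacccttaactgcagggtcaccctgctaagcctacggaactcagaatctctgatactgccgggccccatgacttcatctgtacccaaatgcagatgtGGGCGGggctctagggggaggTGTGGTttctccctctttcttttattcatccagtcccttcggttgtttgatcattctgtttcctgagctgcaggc
Cxcr2: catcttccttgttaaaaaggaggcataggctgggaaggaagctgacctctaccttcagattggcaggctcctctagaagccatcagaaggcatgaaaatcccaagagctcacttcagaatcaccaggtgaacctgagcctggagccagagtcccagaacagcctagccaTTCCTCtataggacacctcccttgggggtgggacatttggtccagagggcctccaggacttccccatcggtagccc
Ccr1: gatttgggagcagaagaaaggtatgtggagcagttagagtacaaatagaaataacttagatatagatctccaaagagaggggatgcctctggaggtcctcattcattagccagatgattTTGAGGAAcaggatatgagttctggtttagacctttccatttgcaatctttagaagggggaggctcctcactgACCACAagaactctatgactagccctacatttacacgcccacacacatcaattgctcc
Cxcr4: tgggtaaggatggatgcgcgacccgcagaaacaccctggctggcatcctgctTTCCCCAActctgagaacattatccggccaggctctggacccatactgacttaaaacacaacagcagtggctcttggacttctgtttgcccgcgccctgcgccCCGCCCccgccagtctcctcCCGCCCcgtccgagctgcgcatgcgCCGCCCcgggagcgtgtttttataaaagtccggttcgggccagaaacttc
The searched letters were TTCNNNGAA (STAT), TTNNGNAA (C/EBP), TGANTCA (AP-1), GAGGAA (PU.1 and other ETS factors), TGTGGT (RUNX) and GGGCGG (GC box). The Cxcr1 window holds 1 GC box and 1 RUNX match, and the Cxcr2 window 1 PU.1 match read on the other strand. In the Ccr1 window the C/EBP match TTGAGGAA overlaps the PU.1 match GAGGAA, and a RUNX match lies nearer the gene. The Cxcr4 window holds 1 C/EBP match and 3 GC boxes. No set of letters was shared by all 4 windows, and none held a STAT or AP-1 match. Among 27025 promoter windows of 250 bases, 36.9% held a C/EBP match, 32.9% a GC box, 23.1% a PU.1 match, 14.2% a RUNX match, 7.18% a STAT match and 6.87% an AP-1 match. A match describes the letters only.

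In neutrophils, 6 of the 10 receptors were at least 1.5-fold higher in PYMT than in Wild Type (Cxcr1, Cxcr2, Ccr1, Ccrl2, C5ar1 and Fpr1), where 7.11% of the 9927 genes with 50 or more UMIs were. Another 3 were at least 1.5-fold lower (Cxcr4, Ccr2 and Cx3cr1), against 42.6% of all genes, and Fpr2 lay within 1.5-fold. The median log2 ratio of PYMT over Wild Type was 0.93 over the receptors and -0.47 over all genes. With the trimmed mean of M-values (TMM), which sets the ratio of most genes near 0, the split over all genes turned from 706 higher and 4227 lower into 1657 and 1818, and their median became -0.02. All receptor ratios then moved up by the same step.

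**Figure D1:**
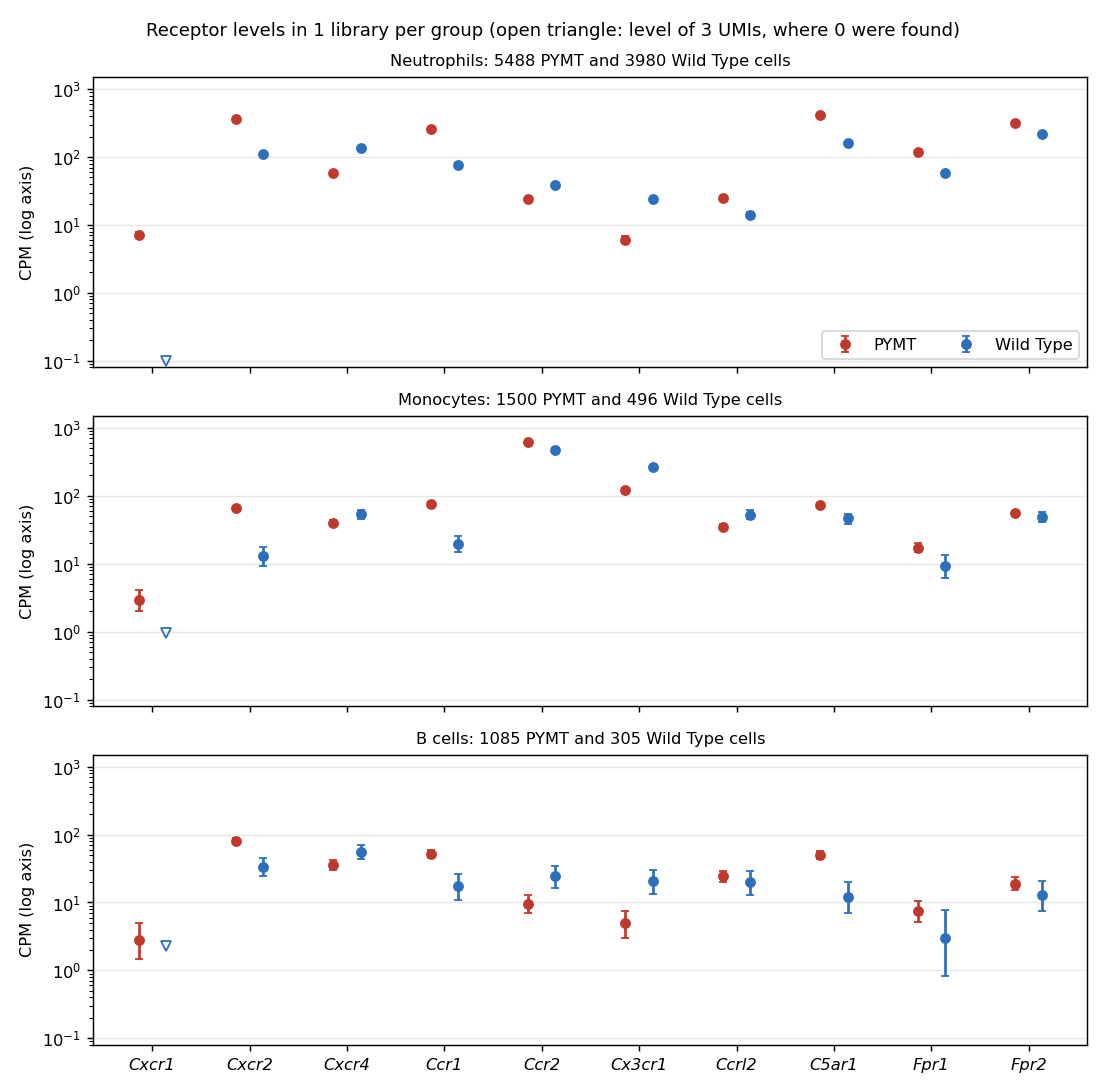
Level of each receptor in CPM (log axis) in neutrophils, monocytes and B cells, with PYMT in red and Wild Type in blue. Points are the 1 library of each group and bars the exact Poisson interval, and an open triangle marks the level of 3 UMIs where none were found. In neutrophils PYMT lies above Wild Type for Cxcr2 (365 CPM in PYMT and 111 CPM in Wild Type) and below it for Cxcr4 (57.6 CPM in PYMT and 136 CPM in Wild Type).

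Cxcr2 and Cxcr1 bind the CXC chemokines that attract neutrophils. Cxcr2 was at 365 CPM in PYMT neutrophils [359 to 370] and at 111 CPM in Wild Type neutrophils [107 to 115], a log2 ratio of 1.72 [1.66 to 1.77]. At least 1 Cxcr2 UMI was found in 87.5% of PYMT and 50.5% of Wild Type neutrophils. After each cell was thinned to 2500 UMIs the shares were 58.2% in PYMT and 27.7% in Wild Type. B cells, which should lack the gene, had thinned shares of 11.3% in PYMT and 5.25% in Wild Type at median depths of 3422 and 3758 UMIs, so both neutrophil shares stood above this background.

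Cxcr1 gave 342 UMIs in PYMT neutrophils (7.08 CPM) and none in Wild Type neutrophils, where 3 UMIs would have been 0.0987 CPM. Taken against those 3 UMIs, the Cxcr1 log2 ratio was 6.16, with a lower counting limit of 5.86. The whole Wild Type library held 1 Cxcr1 UMI, in a cell of no class, and the whole PYMT library held 483. Within PYMT, 255 neutrophils had a Cxcr1 UMI, and 244 of them (95.7%) also had Cxcr2, against 87.1% of the other neutrophils. Those 255 cells were the shallower ones, with a median of 4182 UMIs, against 8444 in the other PYMT neutrophils. Of them, 74.1% had under 1% of UMIs from the granule gene Camp, by which neutrophils are divided below, against 37.5% of all PYMT neutrophils. PYMT neutrophils under 1% Camp had a median of 4059 UMIs, and 78.9% held Cxcr2 without Cxcr4 and 18.4% both. No link of Cxcr1 with Cxcr2 or depth beyond that of low Camp is read.

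Cxcr4, the receptor of Cxcl12, went the other way. It was at 57.6 CPM in PYMT neutrophils [55.5 to 59.8] and at 136 CPM in Wild Type neutrophils [132 to 140], a log2 ratio of -1.24 [-1.31 to -1.17]. With cells thinned to 2500 UMIs, 12.8% of PYMT and 29.8% of Wild Type neutrophils had a Cxcr4 UMI, against 8.76% of PYMT and 9.51% of Wild Type B cells. B cells use Cxcr4 themselves, so their share is no background for this gene. Relative to the bulk of genes the difference was smaller, with a log2 ratio of -0.78 under TMM scaling and -0.72 under DESeq2 median-of-ratios scaling.

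Ccr1, a receptor of Ccl3 and related CC chemokines, was at 261 CPM in PYMT neutrophils [257 to 266] and 76.7 CPM in Wild Type neutrophils [73.6 to 79.9], a log2 ratio of 1.77. Its thinned share of cells was 50.3% in PYMT and 20.5% in Wild Type neutrophils, against 9.95% of PYMT and 4.26% of Wild Type B cells. C5ar1, the receptor of the complement fragment C5a, was at 409 CPM in PYMT and 162 CPM in Wild Type neutrophils, a log2 ratio of 1.34. Both receptors thus lay on the side of Cxcr2.

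The formyl peptide receptors, which sense peptides of bacteria and damaged mitochondria, differed by less. Fpr1 was at 118 CPM in PYMT neutrophils and 58.2 CPM in Wild Type neutrophils, a log2 ratio of 1.02. Its neighbour Fpr2 was at 320 CPM in PYMT and 220 CPM in Wild Type neutrophils, and its log2 ratio of 0.54 [0.50 to 0.58] stayed within 1.5-fold. Under TMM scaling Fpr2 passed 1.5-fold, with a log2 ratio of 1.00.

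Ccrl2, an atypical receptor that binds chemerin and presents it to other cells without signalling, was at 25.3 CPM in PYMT neutrophils and 14.2 CPM in Wild Type neutrophils, a log2 ratio of 0.83. Ccrl2 UMIs were not found in neutrophils alone, since monocytes had 35.3 CPM in PYMT and 52.7 CPM in Wild Type. B cells of the PYMT library had 24.4 CPM and those of the Wild Type library 19.7 CPM. Among B cells with S100a8 and S100a9 under 1% of UMIs, Ccrl2 was at 4.61 CPM in PYMT (1 UMI) and 9.93 CPM in Wild Type (11 UMIs). Its thinned share of 2.94% in Wild Type neutrophils was near that of the B cells (3.28%). The PYMT share was 6.89%, against 4.06% of B cells.

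The monocyte receptors Ccr2 and Cx3cr1 were low in neutrophils, and most of their UMIs came from few cells. Ccr2 was at 23.8 CPM in PYMT and 39.4 CPM in Wild Type neutrophils, a log2 ratio of -0.73. Cx3cr1, the receptor of fractalkine, was at 6.10 CPM in PYMT and 24.1 CPM in Wild Type neutrophils, a log2 ratio of -1.98. The cells with 2 or more UMIs of the monocyte genes Csf1r and F13a1 made up 5.27% of PYMT and 9.37% of Wild Type neutrophils. They held 832 of 1149 Ccr2 UMIs in PYMT and 1001 of 1196 in Wild Type, and 223 of 295 Cx3cr1 UMIs in PYMT and 598 of 732 in Wild Type. Without them Ccr2 was at 7.13 CPM in PYMT and 7.95 CPM in Wild Type neutrophils, and its log2 ratio of -0.16 was within 1.5-fold. Cx3cr1 was then at 1.62 CPM in PYMT and 5.47 CPM in Wild Type, with a log2 ratio of -1.76. Over all neutrophils the summed level of the 10 monocyte markers was 2462 CPM in PYMT and 3014 CPM in Wild Type. No doublets were removed, and whether these cells were doublets was not tested.

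Camp, the cathelicidin of secondary granules, is made during neutrophil maturation and was used to divide neutrophils by its share of their UMIs. Under 1% Camp there were 2057 PYMT and 56 Wild Type neutrophils, from 1% to 4% Camp 1812 PYMT and 468 Wild Type cells, and at 4% or more 1619 PYMT and 3456 Wild Type cells. The libraries therefore differed in make-up, and the ratios over all neutrophils held this difference. Within 3.5% to 4.5% Camp lay 16.7% of PYMT and 7.54% of Wild Type neutrophils, so the upper limit cut through a continuous range. Median depths from low to high Camp were 4059, 9607.5 and 11556 UMIs in PYMT cells and 3339, 4616.5 and 5756.5 UMIs in Wild Type cells.

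Within the PYMT library, 8 of the 10 receptors were at least 1.5-fold higher at Camp under 1% than at 4% or more, against 26.7% of 7874 genes. None was that much lower, against 20.7%. Within the Wild Type library 8 of the 9 receptors with 50 UMIs were higher, against 40.5% of 8513 genes, and none was lower, against 16.2%. The median log2 ratio was 2.22 over the receptors and 0.05 over all genes in PYMT, and 1.08 over the receptors and 0.34 over all genes in Wild Type. The Wild Type values at Camp under 1% rested on 56 cells, in which Ccr2 had 21, Cx3cr1 7 and Ccrl2 6 UMIs. The counting intervals of the Cx3cr1 and Ccrl2 ratios included 0. Ccr2 and Cx3cr1 counted as higher in both libraries, though most of their neutrophil UMIs lay in cells with monocyte genes. Without those cells, Ccr2 in PYMT was at 7.40 CPM under 1% and 5.01 CPM at 4% or more, within 1.5-fold. Cx3cr1 in PYMT was then at 2.47 and 0.844 CPM. In Wild Type, Ccr2 was then at 48.8 and 6.52 CPM and Cx3cr1 at 16.3 and 3.94 CPM. The counts were not redone without those cells.

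Cxcr2 ran steeply with Camp in both libraries. In PYMT it was at 922, 286 and 155 CPM from the lowest to the highest Camp range, and in Wild Type at 465, 185 and 99.3 CPM. The log2 ratio of the lowest over the highest range was 2.57 in PYMT and 2.23 in Wild Type. In finer ranges the PYMT level was 1100.3 CPM in the 1472 cells under 0.25% Camp and 131 CPM at 6% to 8%, and the Wild Type level was 493 CPM at 0.5% to 1% (28 cells) and 63.0 CPM at 10% or more. Over the ranges with at least 20 cells, the Cxcr2 level was lower at each step to more Camp, except in Wild Type between the ranges 4% to 5% (117 CPM) and 5% to 6% (131 CPM).

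Cxcr4 varied less with Camp than Cxcr2, and in PYMT stayed within 1.5-fold between the lowest and the highest range (-0.20, against 0.64 [0.20 to 1.05] in Wild Type). In PYMT it was at 50.2, 61.6 and 57.5 CPM from the lowest to the highest Camp range, and in Wild Type at 209, 145 and 134 CPM. The PYMT fine ranges lay between 43.6 and 67.1 CPM and the Wild Type ones between 123 and 237 CPM, so the libraries did not overlap in any range of at least 20 cells.

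**Figure D2:**
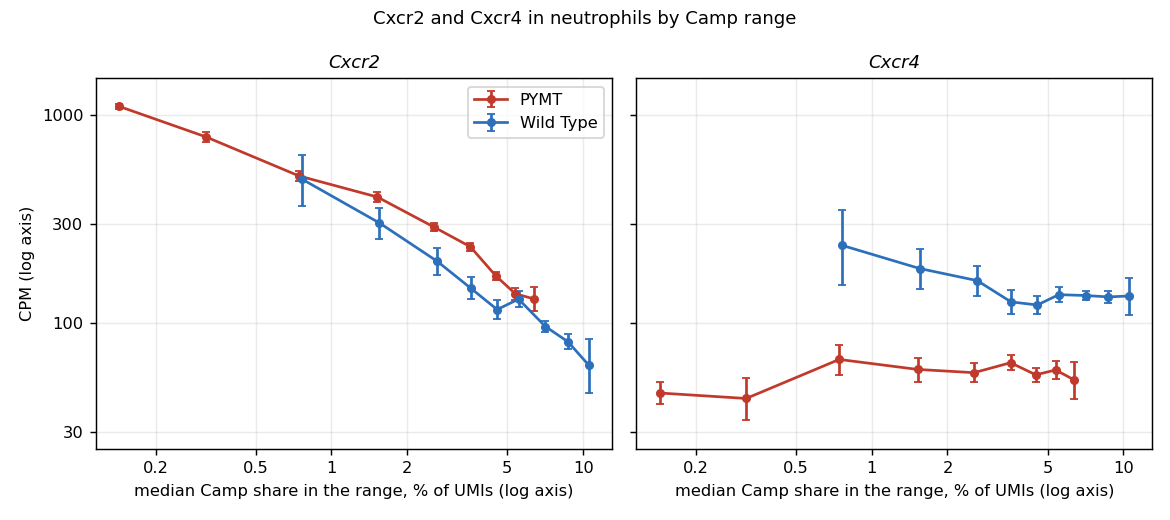
Cxcr2 and Cxcr4 levels in CPM (log axis) in neutrophils of each fine Camp range, placed at the median Camp share of its cells (log axis), with PYMT in red and Wild Type in blue. Bars are exact Poisson intervals, and ranges with under 20 cells are left out. The PYMT Cxcr4 ranges lie from 43.6 to 67.1 CPM and the Wild Type ones from 123 to 237 CPM, while Cxcr2 is lower at more Camp in both libraries, apart from 1 Wild Type step from 117 to 131 CPM.

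Among the other receptors, Ccr1, C5ar1 and Fpr1 were also highest at low Camp. Ccr1 was at 543, 229 and 148 CPM in PYMT and at 191, 115 and 71.3 CPM in Wild Type. C5ar1 was at 673, 384 and 297 CPM in PYMT and at 326, 191 and 157 CPM in Wild Type. Fpr1 was at 205, 127 and 65.1 CPM in PYMT and at 204, 104 and 51.7 CPM in Wild Type. Fpr2 differed little between the ranges, with 318, 332 and 310 CPM in PYMT and 217, 203 and 222 CPM in Wild Type. The Cxcr1 UMIs of PYMT were 264, 46 and 32, or 26.4, 2.44 and 1.64 CPM, a log2 ratio of 4.01 for the lowest over the highest range. In the 56 Wild Type cells under 1% Camp, which held no Cxcr1 UMI, 3 UMIs would have been 13.05 CPM. Against that level the Cxcr1 log2 ratio of PYMT over Wild Type was 1.02, with a lower counting limit of 0.71. With Camp limits of 0.5% and 3% this ratio, which is a bound, was 0.41. A bound under 1.5-fold does not show that the difference itself was within 1.5-fold. Taken against 3 UMIs, the bound was 1.35 from 1% to 4% Camp, with a lower counting limit of 0.99. At 4% or more it was 3.89, with a lower counting limit of 3.51. Wild Type held no Cxcr1 UMI in either range, and both PYMT counts were under the UMI minimum for a call.

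Set against each other within the same Camp range, the libraries differed by less for Cxcr2, Ccr1, C5ar1 and Fpr1 than over all neutrophils. This did not hold for Cxcr4. The ranges did not make Camp equal between the libraries. Under 1% Camp, 1472 of 2057 PYMT and 12 of 56 Wild Type neutrophils lay under 0.25%. At 4% or more, 169 of 1619 PYMT and 1493 of 3456 Wild Type neutrophils lay from 6% to 8%. At Camp under 1%, 5 of 10 receptors were at least 1.5-fold higher in PYMT than in Wild Type (18.6% of 5719 genes) and 3 lower (33.7%). From 1% to 4%, 4 of 9 were higher (5.31% of 7779 genes) and 4 lower (49.2%). At 4% or more, 3 of 9 were higher (3.21% of 9084 genes) and 3 lower (41.1%). The median log2 ratios over the receptors were 0.77, 0.29 and 0.33, and those over all genes -0.23, -0.57 and -0.45. Under TMM scaling the split over all genes became 2127 higher and 835 lower at Camp under 1% (1062 and 1929 by class totals), 2019 and 1254 from 1% to 4% (413 and 3824), and 1081 and 1679 at 4% or more (292 and 3730).

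Cxcr4 was lower in PYMT in all 3 ranges, with log2 ratios of -2.06 [-2.48 to -1.60], -1.23 [-1.39 to -1.07] and -1.22 [-1.32 to -1.12] from low to high Camp. From 1% to 4% Camp the call was lost with scaling to the bulk of genes, at -0.50 under TMM and -0.46 under DESeq2. Thinned to 2500 UMIs, 10.1%, 14.1% and 14.6% of PYMT cells and 41.1%, 32.5% and 29.3% of Wild Type cells had a Cxcr4 UMI.

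Cxcr2 was higher in PYMT by log2 ratios of 0.99 [0.71 to 1.27], 0.63 [0.50 to 0.75] and 0.65 [0.57 to 0.72], against 1.72 over all neutrophils. C5ar1 kept log2 ratios of 1.04, 1.01 and 0.92, and Ccr1 of 1.51, 1.00 and 1.05. The Fpr1 ratios of 0.00, 0.29 and 0.33 all lay within 1.5-fold, against 1.02 over all neutrophils. Ccrl2 was 1.5-fold higher in PYMT only under 1% Camp (67.8 CPM in PYMT and 26.1 CPM in Wild Type). It was within 1.5-fold at 4% or more (11.2 CPM in PYMT and 12.4 CPM in Wild Type). From 1% to 4% it was lower (17.2 CPM in PYMT and 29.4 CPM in Wild Type). Under DESeq2 scaling that Ccrl2 log2 ratio was -0.0003. In finer ranges with at least 20 cells in both libraries, Cxcr2 passed 1.5-fold only from 3% to 4% Camp. It was there at 233 CPM in PYMT and 147 CPM in Wild Type. At 0.5% to 1% Cxcr2 was at 510 CPM in PYMT and 493 CPM in Wild Type. At 5% to 6% it was at 139 CPM in PYMT and 131 CPM in Wild Type.

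Ccr2 was at 37.0, 35.0 and 6.06 CPM in PYMT and at 91.3, 152 and 25.8 CPM in Wild Type from low to high Camp, with log2 ratios of -1.30, -2.12 and -2.09. Cx3cr1 was at 9.60, 9.17 and 1.34 CPM in PYMT and at 30.4, 83.0 and 17.2 CPM in Wild Type, with log2 ratios of -1.66, -3.18 and -3.69. Both were thus lower in PYMT in each range. With neutrophils required to have S100a8 and S100a9 at 20% of UMIs, the Ccr2 ratio was 0.51 [-2.01 to 5.83] under 1% Camp, where Wild Type cells held 1 UMI, and 0.21 [-0.35 to 0.83] from 1% to 4%, so no direction was read there. Under 1% Camp, Cx3cr1 then had 23 UMIs in PYMT and 0 in Wild Type, which gives no direction either. Without the cells with monocyte genes the Ccr2 ratio was -2.72 [-3.73 to -1.53] under 1% Camp with 9 Wild Type UMIs, -1.40 [-1.93 to -0.84] from 1% to 4% and -0.38 at 4% or more, where it was within 1.5-fold. Cx3cr1 was at -2.22 at 4% or more.

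The middle range held the most monocyte RNA in Wild Type. There 5 of 10 monocyte markers reached 50 CPM in PYMT and all 10 in Wild Type, with sums of 2709 CPM in PYMT and 4088 CPM in Wild Type cells, and the neutrophil markers summed to 462499 CPM in PYMT and 336864 CPM in Wild Type. Leaving out the cells with 2 or more Csf1r and F13a1 UMIs kept 1684 of 1812 PYMT and 326 of 468 Wild Type cells from 1% to 4% Camp. That limit was set in raw UMIs, while median depths in the range were 9607.5 UMIs in PYMT and 4616.5 UMIs in Wild Type. Without those cells, Cxcr2 from 1% to 4% Camp was at 299.8 CPM in PYMT and 295 CPM in Wild Type, a log2 ratio of 0.02 [-0.12 to 0.17]. Ccr1 (0.39), C5ar1 (0.53) and Fpr2 (0.38) were then also within 1.5-fold in that range, so none of the 9 receptors was higher. Cxcr4 kept its direction, with 61.8 CPM in PYMT and 188 CPM in Wild Type, a log2 ratio of -1.60. Under 1% Camp the ratio of Cxcr2 was then 0.77 [0.49 to 1.07], and at 4% or more 0.54 [0.46 to 0.62], which is within 1.5-fold.

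**Figure D3:**
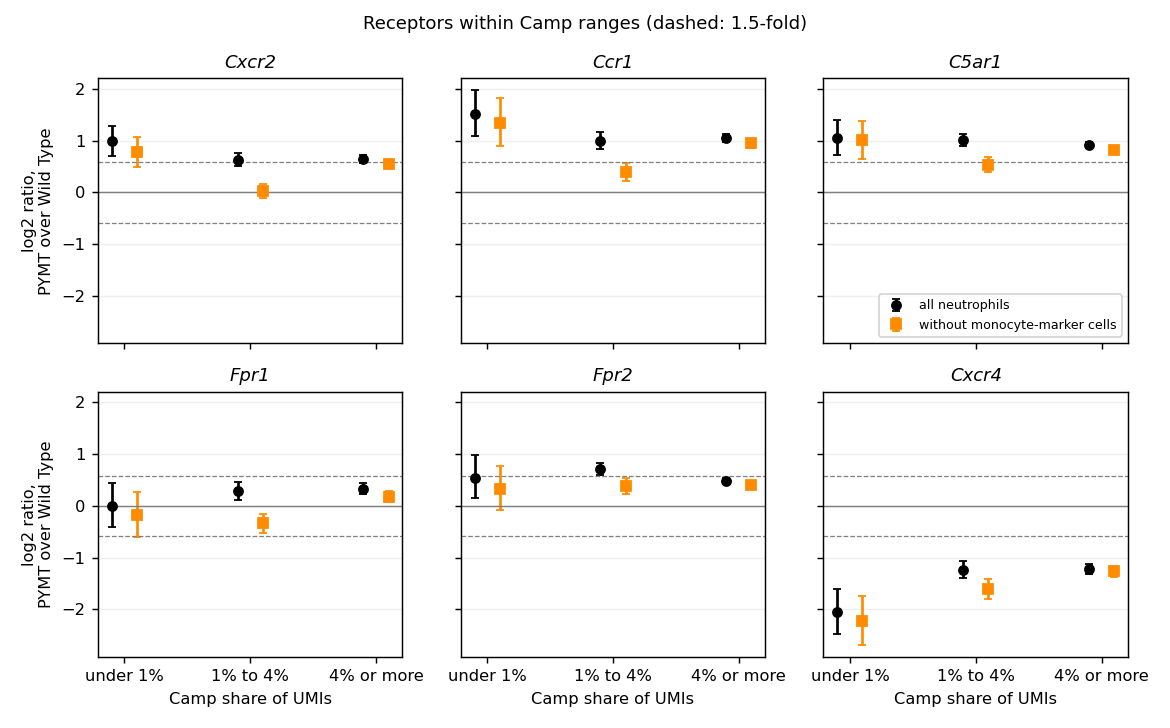
Log2 ratio of PYMT over Wild Type for 6 receptors in neutrophils of each Camp range, for all neutrophils (black circles) and without cells that had 2 or more Csf1r and F13a1 UMIs (orange squares). Bars are exact conditional intervals that cover counting error only, and dashed lines mark 1.5-fold. Cxcr4 lies below its dashed line in all 3 ranges, while Cxcr2 from 1% to 4% Camp is at 0.63 with and 0.02 without those cells.

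Cells with 3 or more UMIs of 8 cell cycle genes made up 7.33% of PYMT and 12.04% of Wild Type neutrophils. In them Cxcr2 was at 151 CPM in PYMT and 48.6 CPM in Wild Type, and in the other neutrophils at 399 CPM in PYMT and 133 CPM in Wild Type. Cxcr4 was at 61.4 CPM in PYMT and 107 CPM in Wild Type in the cycling cells, and at 57.0 CPM in PYMT and 146 CPM in Wild Type in the others. Without the cycling cells the Cxcr2 log2 ratio at 4% or more Camp was 0.44, within 1.5-fold.

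Wfdc17, a gene of the whey acidic protein domain family, took 1% or more of the UMIs of 1626 PYMT neutrophils and of 1 Wild Type neutrophil, a limit chosen after these values were seen. Those PYMT cells had Cxcr2 at 1041 CPM, Cxcr1 at 33.2 CPM and Cxcr4 at 44.0 CPM, against 243, 2.39 and 60.1 CPM in the 3862 other PYMT neutrophils. The 1472 PYMT neutrophils under 0.25% Camp had similar levels, at 1100.3, 38.2 and 46.3 CPM. Whether the Wfdc17 split differs from the split by Camp was not tested.

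Cxcr2 and Cxcr4 were also set against each other in single neutrophils thinned to 2500 UMIs. UMIs of Cxcr2 without Cxcr4 were found in 51.4% of PYMT and 19.0% of Wild Type neutrophils. The reverse, Cxcr4 without Cxcr2, was found in 5.92% of PYMT and 21.1% of Wild Type cells. Both were found in 6.83% of PYMT and 8.77% of Wild Type cells, and neither in 35.8% of PYMT and 51.2% of Wild Type cells. Had the receptors been detected independently, 7.43% of PYMT and 8.27% of Wild Type cells would have had both. The odds ratio of joint detection was 0.80 in PYMT and 1.12 in Wild Type, and the Pearson correlation across cells -0.01 in PYMT and 0.06 in Wild Type. These values over all neutrophils lie near what independent detection gives, and in such sparse counts no relation is read from the weak correlations. From low to high Camp the odds ratios were 0.83, 1.06 and 0.88 in PYMT and 2.67, 1.74 and 0.98 in Wild Type. From 1% to 4% Camp, 17.7% [14.4 to 21.5] of Wild Type cells had both, against 14.7% under independent detection.

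Among neutrophils with a UMI of either receptor, 85.7% of PYMT and 42.9% of Wild Type cells had more Cxcr2 than Cxcr4 UMIs. From low to high Camp that share was 96.3%, 79.0% and 67.1% in PYMT and 70.0%, 55.5% and 40.1% in Wild Type. It was lower at more Camp in both libraries, and higher in PYMT in every range. Capture by 3′ libraries differs between genes, so the balance is read only between libraries and ranges. Cells with both receptors were few in PYMT at Camp under 1% (8.60%) and more frequent in the 56 Wild Type cells there (30.4% [18.8 to 44.1]). Independent detection would have given 8.80% in PYMT and 24.9% in Wild Type there, so no difference in joint detection is read.

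**Figure D4:**
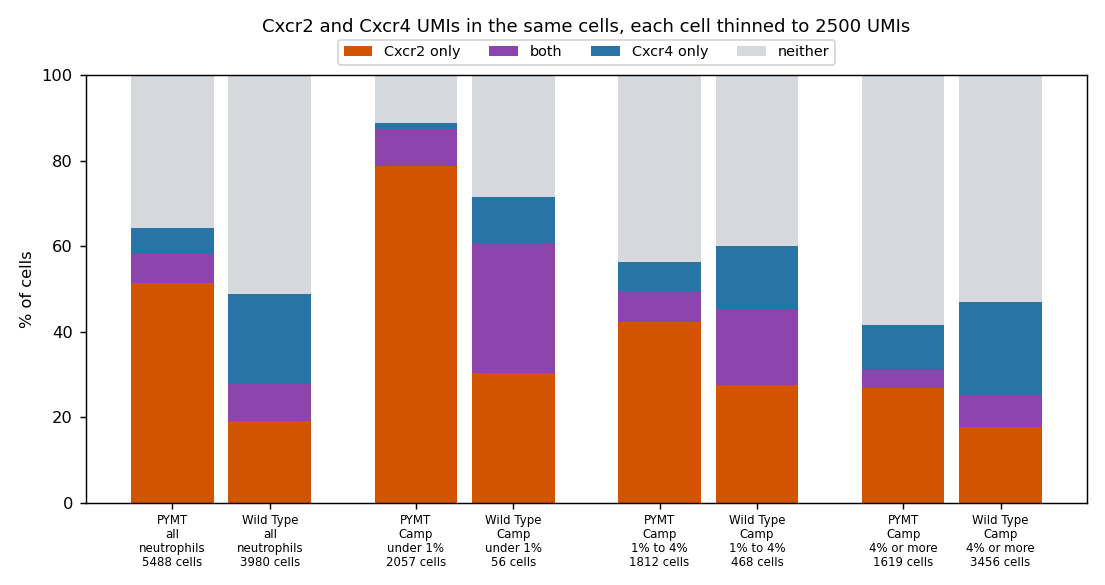
Share of neutrophils (percent of cells) with UMIs of Cxcr2 only, both receptors, Cxcr4 only or neither, with cells cut down at random to 2500 UMIs each, for PYMT and Wild Type over all neutrophils and in each Camp range. At Camp under 1%, Cxcr2 only was found in 78.8% of 2057 PYMT cells and 30.4% of 56 Wild Type cells.

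In the cells of no class, 1077 in PYMT and 710 in Wild Type, 6 of the 10 receptors were higher in PYMT (7.96% of 9157 genes) and 2 lower (11.3%). These were the receptors higher in neutrophils, and of the lower ones Cxcr4 and Cx3cr1.

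In monocytes, 4 of 9 receptors were at least 1.5-fold higher in PYMT (8.95% of 8748 genes) and 1 was lower (7.90%). The median log2 ratio was 0.36 over the receptors and 0.03 over all genes. Ccr2, which brings classical monocytes out of marrow towards Ccl2, was at 613 CPM in PYMT and 478 CPM in Wild Type monocytes, a log2 ratio of 0.36 [0.28 to 0.44] and so within 1.5-fold. Cx3cr1 was at 123 CPM in PYMT and 266 CPM in Wild Type, a log2 ratio of -1.12 [-1.24 to -0.99]. It was the receptor that was lower.

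The mix of monocytes differed between the libraries. Of the monocytes, 551 in PYMT and 249 in Wild Type had a UMI of Ace or Treml4, which mark nonclassical monocytes, and of the remainder 815 in PYMT and 138 in Wild Type had at least 5 UMIs of Ly6c2, which marks classical ones. Cx3cr1 was at 186 CPM in PYMT and 312 CPM in Wild Type among cells with Ace or Treml4, and at 77.0 CPM in PYMT and 176 CPM in Wild Type among those with Ly6c2. Its log2 ratios of -0.75 and -1.19 passed 1.5-fold in both. Ccr2 was at 504 CPM in PYMT and 413 CPM in Wild Type cells with Ace or Treml4, and at 689 CPM in PYMT and 543 CPM in Wild Type cells with Ly6c2, within 1.5-fold in both.

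Cxcr2, Ccr1, C5ar1 and Fpr1 were the 4 receptors higher in PYMT monocytes, with Cxcr2 at 65.2 CPM against 12.9 CPM in Wild Type (log2 ratio 2.34) and Ccr1 at 75.2 CPM in PYMT and 19.6 CPM in Wild Type (1.94). Fpr2 was within 1.5-fold, at 55.7 CPM in PYMT and 49.2 CPM in Wild Type (0.18). Neutrophil RNA was also higher there, since the 12 neutrophil markers summed to 19967 CPM in PYMT and 13170 CPM in Wild Type monocytes. Among monocytes with S100a8 and S100a9 under 1% of UMIs, 58 in PYMT and 446 in Wild Type, Cxcr2 had only 5 UMIs in PYMT and 8 in Wild Type. Ccr1 in those cells was at 55.9 CPM in PYMT and 11.5 CPM in Wild Type (2.29), Ccr2 at 649 CPM in PYMT and 489 CPM in Wild Type (0.41), and Cx3cr1 at 105 CPM in PYMT and 268 CPM in Wild Type (-1.35). C5ar1 (0.68 in all monocytes) was within 1.5-fold there, at 0.28, and Ccr1 was then the only receptor with 50 UMIs that was 1.5-fold higher in PYMT.

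In B cells, which served as a gauge of background, 3 of 7 receptors were higher in PYMT (12.7% of 6924 genes) and 2 lower (4.39%). Cxcr2 was at 81.4 CPM in PYMT and 33.4 CPM in Wild Type B cells, Ccr1 at 51.8 CPM in PYMT and 17.4 CPM in Wild Type, and C5ar1 at 49.5 CPM in PYMT and 12.1 CPM in Wild Type. The granule genes Camp, Ngp, Ltf and Lcn2 in B cells stood at 3.80% of their neutrophil level in PYMT and 2.42% in Wild Type. Cxcr2 stood at 22.3% of its neutrophil level in PYMT and 30.1% in Wild Type, and Ccr1 at 19.8% in PYMT and 22.7% in Wild Type, above the granule genes. Fpr1 stood at 6.35% in PYMT and 5.21% in Wild Type, and Fpr2 at 5.93% in PYMT and 5.86% in Wild Type. The receptors and the granule genes thus did not stand in 1 fixed ratio to their neutrophil levels. Only 53 of 1085 PYMT B cells had S100a8 and S100a9 under 1% of UMIs, against 255 of 305 in Wild Type. In those cells Cxcr2 was at 13.8 CPM in PYMT (3 UMIs) and 5.41 CPM in Wild Type (6 UMIs). Ccr1 was at 32.3 CPM in PYMT and 6.32 CPM in Wild Type there, from 7 UMIs each. The source of receptor UMIs in B cells was not tested.

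Of 16 other chemokine receptors, 2 had 50 UMIs in neutrophils. Ccr7 was at 1.03 CPM in PYMT and 0.395 CPM in Wild Type (log2 ratio 1.39), and Ccr10 at 0.476 CPM in PYMT and 1.32 CPM in Wild Type (-1.47). Of 24 further chemoattractant receptors 17 could be compared, with 3 at least 1.5-fold higher and 4 lower and a median log2 ratio of -0.01, beside 7.11% higher, 42.6% lower and a median of -0.47 over all genes. The adenosine receptor Adora3 had the highest ratio of the list, at 9.06 CPM in PYMT and 1.05 CPM in Wild Type (3.11), followed by the nucleotide receptor P2ry2 at 5.19 CPM in PYMT and 1.51 CPM in Wild Type (1.78). The chemerin receptor Cmklr1 was at 0.352 CPM in PYMT and 1.32 CPM in Wild Type (-1.90) and the prostaglandin receptor Ptger4 at 3.17 CPM in PYMT and 10.7 CPM in Wild Type (-1.76). Monocytes had more of both, with Cmklr1 at 10.0 CPM in PYMT and 13.2 CPM in Wild Type, and Ptger4 at 20.7 and 20.9 CPM. How far neutrophils with monocyte genes shaped these 2 ratios was not tested.

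Of 22 chemokines and other ligands, 13 could be compared in neutrophils, with 6 higher and 3 lower in PYMT and a median of 0.53, beside the same shares of 7.11% and 42.6% and median of -0.47 over all genes. Ccl6, which binds Ccr1, was at 344 CPM in PYMT and 132 CPM in Wild Type (1.39). Ppbp, the precursor of a Cxcr2 ligand, was at 3.14 CPM in PYMT and 0.559 CPM in Wild Type (2.49), and Pf4 at 4.43 CPM in PYMT and 1.55 CPM in Wild Type (1.52), both being platelet genes as well. Cxcl16 was lower, at 0.724 CPM in PYMT and 4.21 CPM in Wild Type (-2.54). Its level was higher in monocytes (8.64 CPM in PYMT and 50.8 CPM in Wild Type), and the part of neutrophils with monocyte genes was not tested.

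Signalling genes downstream of the receptors, such as G protein subunits and kinases, were taken as a further list. All 30 genes of that list could be compared in neutrophils, with 2 higher and 7 lower and a median log2 ratio of -0.06, against 7.11% higher, 42.6% lower and a median of -0.47 over all genes. The lowest ratios were those of Itpr1, a calcium channel of the endoplasmic reticulum (1.88 CPM in PYMT and 3.88 CPM in Wild Type, -1.04), and Pik3cg, the phosphoinositide kinase that chemoattractant receptors use (17.2 CPM in PYMT and 31.1 CPM in Wild Type, -0.86). Of 18 genes of desensitisation and trafficking 1 was higher and 6 were lower, beside 7.11% and 42.6% of all genes. Adrbk2, the receptor kinase also called Grk3, was at 3.56 CPM in PYMT and 17.9 CPM in Wild Type (-2.33), and Arrb1, which encodes an arrestin, at 4.94 CPM in PYMT and 13.1 CPM in Wild Type (-1.41). Rgs3, a regulator of G protein signalling, was at 87.3 CPM in PYMT and 24.3 CPM in Wild Type (1.85).

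In monocytes the ligand list leaned the other way, with 1 of 11 higher and 7 lower and a median of -0.82, against 8.95% higher, 7.90% lower and a median of 0.03 over all genes. Cxcl16 was at 8.64 CPM in PYMT and 50.8 CPM in Wild Type (-2.56) and Ccl5 at 5.70 CPM in PYMT and 32.8 CPM in Wild Type (-2.52). Adrbk2 was lower there too, at 54.7 CPM in PYMT and 139 CPM in Wild Type (-1.34), as was Cd74, the invariant chain and receptor of Mif, at 978 CPM in PYMT and 7290 CPM in Wild Type (-2.90). None of the 30 signalling genes was 1.5-fold higher and 2 were lower, near the 7.90% of all genes that were lower.

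Likeness between genes was measured by Pearson correlation of log2(CPM + 1) over 10 sums, those of the 3 Camp ranges, monocytes and B cells in each library, among 6515 genes with 500 or more UMIs. These sums share libraries and classes, and the values are descriptions. Among the genes most like Cxcr2 were Agpat9 (0.99), Klra17, Grina and Ikbkap (0.97 each). Those most like Cxcr4 were Hipk1 (0.98), L1cam (0.97), Slc6a13 and Lyrm2 (0.95 each). Among the receptors, Cxcr2 ran most like Ccr1 (0.96), then Fpr1 (0.88) and C5ar1 (0.87), and had 0.35 with Cxcr4. The highest value of any receptor pair was that of C5ar1 with Fpr1 (0.965). Ccr2 and Cx3cr1 ran alike (0.95), as did C5ar1 with Ccr1 (0.95), C5ar1 with Fpr2 (0.95) and Fpr1 with Fpr2 (0.94).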

How the data were processed

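Spleen cells sorted on CD11b and Gr1 were sequenced as 10x 3′ version 2 libraries, per the labels' protocols, whose antibody panel also held CD45, CD84 and Jaml. Per the submitters' processing notes, Cell Ranger 2.1.0 and the mm10 build were used. The deposited files hold raw UMI counts per gene and cell, with 73435307 UMIs in 9155 PYMT cells and 42542700 in 5491 Wild Type cells. The lowest cell held 2502 UMIs in PYMT and 2752 in Wild Type.

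A cell was used if it had 200 or more genes and no more than 10% of its UMIs from mitochondrial genes; 5 PYMT cells failed this, and no doublets were removed. A cell meeting both the monocyte and the B cell rule went to neither (67 PYMT and 70 Wild Type cells), and cells of no class (1077 PYMT and 710 Wild Type) were set apart and compared only with each other. Within each library the UMIs of a class were added up and divided by their total to give CPM, with exact Poisson intervals in Python 3.11.15 (scipy 1.17.1). Ratios are PYMT over Wild Type with exact conditional 95% intervals. Genes needed 50 UMIs over both sums, a call was a ratio of 1.5 or more, and where a library had 0 UMIs the ratio was taken against 3, as a bound. No test was run, since each group had 1 library of pooled animals. Named genes were all 10 receptors, up to 4 genes of each of 5 lists with the largest absolute ratio, of which only examples are given, and the 5 genes most like a receptor, of which 1 is not reported here. The genes, lists and class rules were chosen with earlier results of these data known. Alternatives were edgeR 4.0.16 TMM and DESeq2 1.42.0 scaling (R 4.3.3), thinning, other cell filters, class and Camp limits, and other UMI minimums. The calculation was tested on simulated data.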

Additional observations from a re-analysis of the deposited data

Results flagged for a closer look

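In 3 cases the counting intervals of a receptor's PYMT over Wild Type ratio lay on opposite sides of 0 in different cells. These differences were not tested, and not every ratio passed 1.5-fold. The Ccr2 log2 ratio of PYMT over Wild Type was lower in neutrophils than in monocytes by -1.09 (-0.73 and 0.36), and most Ccr2 UMIs of the neutrophils lay in cells with monocyte genes. The Ccrl2 log2 ratio was higher in neutrophils than in monocytes by 1.41 (0.83 and -0.58), and the monocyte ratio was within 1.5-fold. Within neutrophils, the Ccrl2 ratio was higher at Camp under 1% than from 1% to 4% by 2.15, with 6 Wild Type UMIs in the lowest range. From 1% to 4% its ratio of -0.77 lost the 1.5-fold call under 5 of 15 alternatives, and was -0.0003 with DESeq2.

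The cells that met no class rule, 1077 in PYMT and 710 in Wild Type, lay outside the 3 cell classes but held receptor UMIs, and 6 receptors were at least 1.5-fold higher there in PYMT (7.96% of all genes were). Cxcr1 had 95 UMIs in PYMT and 1 in Wild Type, a log2 ratio of 6.31 with a counting interval of 3.80 to 11.6. Cxcr2 was at 309 CPM in PYMT and 86.6 CPM in Wild Type (1.84), Ccr1 at 189 CPM in PYMT and 54.6 CPM in Wild Type (1.79), and C5ar1 at 226 CPM in PYMT and 93.0 CPM in Wild Type (1.28). The log2 ratio of Fpr1 was 0.93 and that of Ccrl2 0.70.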

How the results depend on the processing

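With 1 library per group, differences between mice, pools and library preparations could not be separated from the groups, and intervals cover counting error only. Over all neutrophils, 8 of the 10 receptors kept direction and 1.5-fold call under all 13 alternatives, Ccr2 changed its call under 6 and Fpr2 under 3. Alternatives with a minimum of 10 or 200 UMIs leave each receptor's ratio as it was, so they could not change it. They are included in the 13 and 15 alternatives and in the unmoved values given below. Leaving out the cell filter added only 5 PYMT cells. The log2 ratio of Cxcr2 ranged from 1.59 to 2.24 and that of Cxcr4 from -1.43 to -0.72. At 4% or more Camp, Cxcr2 lost its call under 6 of 15 alternatives (0.37 to 1.14). Of the receptor values under alternatives, 630 moved by no more than their counting interval, and 262 by more. A further 5, past 1.5-fold at first, changed sign; the cause was not tested. Those 5 were Cx3cr1 by Camp within Wild Type with thinned cells (-0.28), Ccr2 in B cells with S100a8 and S100a9 under 1% (0.82) and, with a neutrophil limit of 20%, Ccr2 under 1% Camp (0.51, with 1 Wild Type UMI), Ccr2 from 1% to 4% (0.21, its interval including 0) and Cxcr2 from 1% to 4% (-0.071). Values within 1.5-fold that changed sign under some alternatives included Fpr1 under 1% (-0.28 to 0.54) and from 1% to 4% (-0.47 to 1.06). The others were Ccrl2 at 4% or more (up to 0.36) and in B cells (down to -1.11), and Fpr2 by Camp within PYMT (down to -0.27). Among counts of receptors past 1.5-fold, those lower from 1% to 4% Camp were 2 in place of 4 under TMM, DESeq2 or the 20% limit, and those higher there 2 with equal weight per cell or thinning and 0 with the 20% limit or without monocyte-marker cells. Those higher at 4% or more were 5 in place of 3 under TMM or DESeq2, and those lower under 1% were 1 in place of 3 with the 20% limit. In monocytes those lower were 2 in place of 1 without the 50 most abundant genes, with equal weight or with S100a8 and S100a9 under 1%, and 3 with thinning, and those higher were 1 in place of 4 with S100a8 and S100a9 under 1%. In B cells those lower were 1 in place of 2 with equal weight, a minimum of 200 UMIs or S100a8 and S100a9 under 1% and 0 with thinning, and those higher 0 in place of 3 with S100a8 and S100a9 under 1%. The share of cells with more Cxcr2 than Cxcr4 was 84.2% in PYMT and 35.4% in Wild Type without thinning, and 87.7% in PYMT at 1000 UMIs. No paired analysis was possible because each group has 1 library.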
